A study of Mus musculus with 9 samples.

Results

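Purkinje cells are the large GABAergic neurons that form a single layer between the molecular and granule cell layers of the cerebellar cortex and carry its output. The genes described here are 31 known markers of these cells, listed by gene symbol. The list was chosen with earlier results of these data known. Of the 31 genes, 28 had a probe set annotated with their symbol alone, out of 19147 genes measured in this way. Skor2, a co-repressor needed in young Purkinje cells, and Itpr1, the IP3 receptor of the Purkinje endoplasmic reticulum, had no such probe set, and the probe set of Arhgef33 was shared with a neighbouring gene. Where a gene had several probe sets, the one with the highest mean log2 intensity over all arrays was read.

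Gene expression arrays were made from total RNA of mouse brain (cerebella of postnatal day 5 according to the design text), with 1 array per animal in 3 groups of 3. All animals carried the strain label C57BL/6. SmoA2 mice express SmoA2, an activated form of the hedgehog signal transducer Smoothened, from a transgene driven by a fragment of the ND2 (Neurod2) promoter that is specific to granule neuron precursors. The Smo/Smo group is named only in this way by the labels and was taken by elimination as the SmoA1 line of the design text, which uses a similar transgene with another activating mutation. Wild type mice of the same age were the controls for both lines. The codes that name the animals start differently in Smo/Smo than in SmoA2 and wild type, so the source of the animals and the genotype cannot be told apart in comparisons with Smo/Smo.

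Purkinje cells secrete Sonic hedgehog, which drives division of the granule neuron progenitors above them, and at this age they are still growing their dendrites and forming their first synapses. Their known equipment includes a strong calcium signalling system, in which glutamate receptors coupled to G proteins activate a phospholipase, the resulting IP3 releases calcium from internal stores, and buffers and pumps remove it. The transcription factor Rora is needed for these neurons to mature and survive, and Foxp and Ebf factors mark the lineage from its birth. Several markers, among them Rora, Foxp1, the Ebf factors and Atp2b2, are also used by other neurons of the cerebellum.

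The array medians lay between 91.0 and 95.1 intensity units, and the correlation of log2 values between arrays, across probe sets, between 0.994 and 0.998. Levels below are log2 intensities, and the values of Y-linked probe sets in female mice, 2.80 to 5.57, mark the background. All 28 markers lay above that range in each array, the lowest value being 6.33. The granule neuron factors Zic1 (13.1 to 13.3) and Pax6 (11.9 to 12.1) were high in all 9 arrays, while the motor neuron marker Chat (3.01 to 3.56) and the hindbrain factor Hoxa2 (3.58 to 4.83) stayed within the background range. Wild type replicate 3 stood apart in the choroid plexus marker Ttr, at 4.95 against up to 12.1 in the other arrays, and SmoA2 replicate 3 had the lowest array weight in limma, 0.386. The counts of called Purkinje markers and the other marker lists are also given without these 2 arrays. The labels give no sex, and by the signals of Xist and of Y-linked genes each group was mixed, with 2 males and 1 female in SmoA2, 2 males and 1 female in Smo/Smo, and 1 male and 2 females in wild type. The labels do not say whether the animals came from separate litters.

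The first comparison asked how Purkinje cell markers stand at postnatal day 5 in the SmoA2 line. They were lower in SmoA2 almost throughout. Of the 28 markers, 26 had a log2 fold change below 0, against 47.9% of all genes, and the median of the 28 was -0.27, against 0.01 for all genes (quartiles -0.08 and 0.09). With limma and an adjusted p under 0.05 over all 19147 genes, 5 markers were called lower and none higher (background: 2.69% of genes called, 1.73% lower and 0.961% higher). These were Rora, Pcp2, Esrrb, Foxp4 and Kitl. At an unadjusted p under 0.05, 21 were lower (background 8.18%) and 1 was higher (background 6.61%). The 3 SmoA2 arrays lay below all 3 wild type arrays in 19 of the 28 markers (background 10.2%) and above them in 1 (background 8.89%). In bulk tissue, fewer Purkinje cells, a smaller share of their RNA and less of each transcript per cell cannot be told apart.

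The size of the shift was more stable than the number of calls. The median stayed between -0.28 and -0.26 when single arrays were left out, but the count of called markers ranged from 0 to 10. No marker was called without wild type replicate 1 or without wild type replicate 2, 3 were called without wild type replicate 3, 1 without SmoA2 replicate 1 and 10 without SmoA2 replicate 3. Without wild type replicate 3 and SmoA2 replicate 3 together, 2 were called (Pcp2 and the glutamate transporter gene Slc1a6) and the median was -0.28. When genes of low signal were left out of the test (log2 of at least 6 in at least 3 arrays), 16 markers were called. With an intensity trend in the variance and robust eBayes together, 18 were called. Both of these sets held all 5 of the first. Calls over all genes rose in the same fits, to 6.42% of the 12187 genes kept by the filter and to 3.99% of genes with the trend, against 2.69%. In the fits lacking 1 array the share of all genes called ran from 1.22% to 2.32%, and it was 2.16% without SmoA2 replicate 3, where 10 markers were called. The share was 1.12% without wild type replicate 3 and SmoA2 replicate 3 together.

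**Figure D1:**
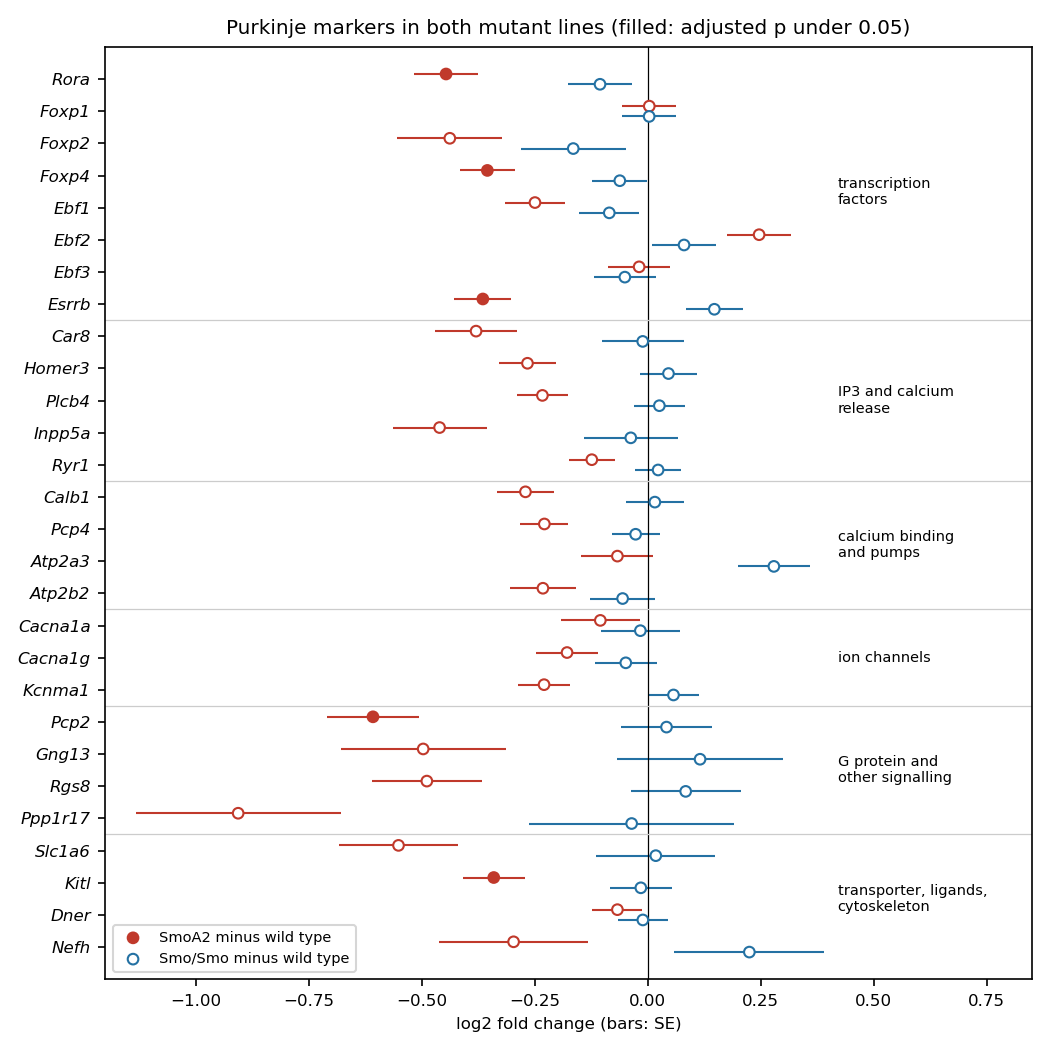
Log2 fold changes of the 28 Purkinje markers against wild type (x axis, bars are standard errors of the limma model, n = 3 arrays per group), with SmoA2 in red above Smo/Smo in blue and genes ordered by role. The SmoA2 values lie left of 0 in 26 of 28 genes and 5 of them are filled as called, while the Smo/Smo values scatter around 0 with none filled.

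Transcription factors gave 3 of the 5 calls. Rora, the orphan nuclear receptor lost in staggerer mice, had log2 levels of 9.87, 9.72 and 9.63 in SmoA2, 10.03, 10.09 and 10.12 in Smo/Smo, and 10.18, 10.22 and 10.15 in wild type. All SmoA2 arrays lay below all others. The difference between SmoA2 and wild type was 1.36-fold (log2 fold change -0.45 ± 0.07, SE, adjusted p = 0.0116). A second, dimmer Rora probe set gave -0.32 (adjusted p = 0.164 when all probe sets entered the test). Without wild type replicate 1 or 2 the adjusted p of Rora was 0.0505 or 0.0565.

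Foxp4, a forkhead repressor, had levels of 9.24, 9.34 and 9.22 in SmoA2, 9.52, 9.62 and 9.55 in Smo/Smo, and 9.67, 9.63 and 9.56 in wild type. Its SmoA2 arrays were again the 3 lowest, and the log2 fold change was -0.35 ± 0.06 (adjusted p = 0.0175). Esrrb, an orphan receptor related to the estrogen receptors, had 8.17, 8.34 and 8.25 in SmoA2, 8.75, 8.84 and 8.71 in Smo/Smo, and 8.61, 8.63 and 8.61 in wild type. The 3 groups did not overlap, SmoA2 being lowest and Smo/Smo highest. Against wild type Esrrb changed by -0.36 ± 0.06 in SmoA2 (adjusted p = 0.0175). Its other probe set lay within the background range, and the mean of both was not called (log2 fold change -0.21, adjusted p = 0.155). The calls of Foxp4 (with adjusted p reaching 0.0868) and of Esrrb (reaching 0.0731) ended without wild type replicate 1, wild type replicate 2 or SmoA2 replicate 1, and that of Esrrb also without wild type replicate 3 (0.0579).

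The other 5 transcription factors had no call. Foxp2, a forkhead factor of the Purkinje lineage, had levels of 8.81, 9.17 and 8.65 in SmoA2, 9.16, 9.16 and 9.12 in Smo/Smo, and 9.23, 9.33 and 9.38 in wild type. SmoA2 lay below wild type without overlap but spread over 0.52, against 0.15 in wild type, and the log2 fold change of -0.44 ± 0.12 had an adjusted p of 0.0959. Ebf1, an early B-cell factor family member, had a similar p at a smaller size (-0.25 ± 0.07, adjusted p = 0.0985). Dimmer probe sets gave -0.28 for Foxp2 (adjusted p = 0.448) and -0.16 for Ebf1 (0.279) when all probe sets entered the test.

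The family members did not move as a unit. Ebf2, which marks a subset of Purkinje cells, was the marker with the highest log2 fold change, 0.25 ± 0.07 (adjusted p = 0.129). Its levels were 7.78, 7.69 and 7.74 in SmoA2, 7.44, 7.68 and 7.59 in Smo/Smo, and 7.46, 7.52 and 7.49 in wild type, so that SmoA2 lay above both other groups. Foxp1 (0.00 ± 0.06) and Ebf3 (-0.02 ± 0.07) differed by less than their standard errors. Other probe sets above the background range gave Foxp1 -0.10 and Ebf3 0.056, neither of them called.

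Pcp2, a regulator of G protein alpha subunits that is expressed in Purkinje cells and in retinal bipolar cells, had levels of 11.28, 11.11 and 11.56 in SmoA2, 11.98, 11.96 and 11.96 in Smo/Smo, and 11.95, 11.96 and 11.87 in wild type. The 6 arrays of the other groups lay within a narrow band above all 3 SmoA2 arrays. Pcp2 was 1.52-fold lower in SmoA2 (log2 fold change -0.61 ± 0.10, adjusted p = 0.0143). Pcp2 kept its call in 6 of 9 fits that each left out 1 array. The exceptions were the fits lacking wild type replicate 1, wild type replicate 2 or SmoA2 replicate 1, where the adjusted p reached 0.0657.

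Kitl, the ligand that Purkinje cells present to the Kit receptor of molecular layer interneurons, had levels of 10.54, 10.64 and 10.49 in SmoA2, 10.81, 10.91 and 10.93 in Smo/Smo, and 10.97, 10.81 and 10.92 in wild type. The SmoA2 arrays were the lowest, and the log2 fold change was -0.34 ± 0.07 (adjusted p = 0.0342). Kitl had 3 probe sets, and its other 2 were lower as well, with -0.48 (adjusted p = 0.0298) and -0.45 (0.0351) when all probe sets entered the test. The call on the probe set read here was the least stable of the 5. It ended in 7 of 9 such fits, with adjusted p reaching 0.141, and remained without SmoA2 replicate 2 and without Smo/Smo replicate 1. It also ended with arrays centred on their medians (0.0517) and with sex as a covariate (0.0746).

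**Figure D2:**
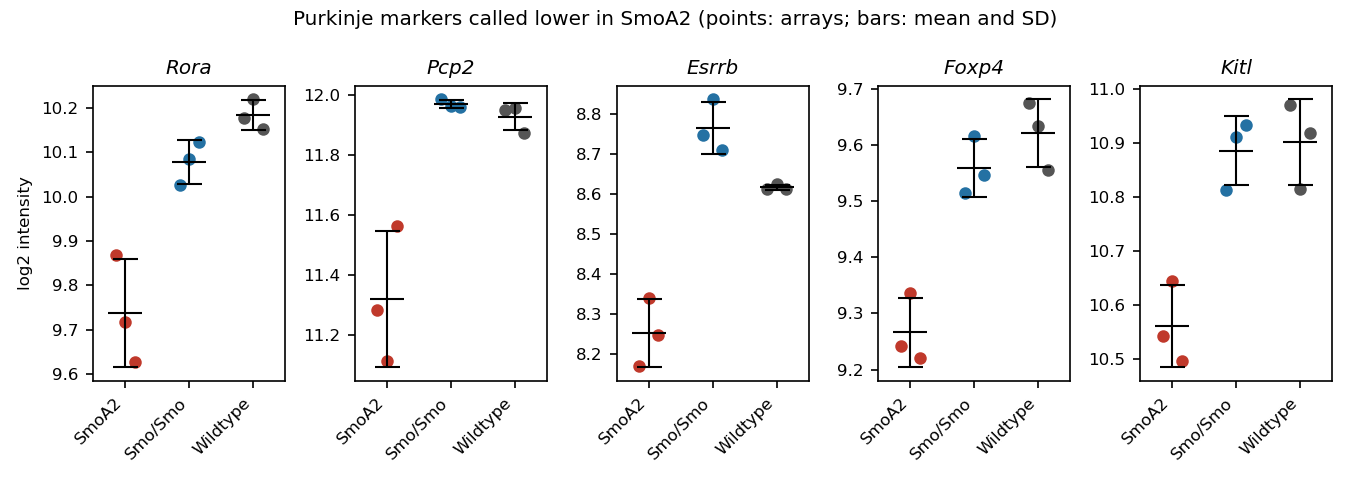
Log2 intensity by array of the 5 Purkinje markers called lower in SmoA2, with 1 panel per gene and its own y axis that does not start at 0. Points are arrays and bars are the mean and SD of 3. In each panel the 3 SmoA2 points lie below all Smo/Smo and wild type points.

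The promoters of these 5 genes are shown because the genes were lower together and Rora is itself a DNA-binding receptor. Each window runs from 250 bases before to 50 bases after a transcription start of RefSeq in GRCm38.p6, 5′ to 3′ on the strand of the gene. They lie at chr9:68653536-68653835 (plus strand, Rora), chr8:3625498-3625797 (minus strand, Pcp2), chr12:86360867-86361166 (plus strand, Esrrb), chr17:47924583-47924882 (minus strand, Foxp4) and chr10:100015571-100015870 (plus strand, Kitl). The first listed start was used for Pcp2, which has 4, and for Esrrb, which has 2. Capitals mark AGGTCA, the core letters of the site that Rora binds, and CCCNNGG, letters of the Ebf palindrome, on either strand.
Rora: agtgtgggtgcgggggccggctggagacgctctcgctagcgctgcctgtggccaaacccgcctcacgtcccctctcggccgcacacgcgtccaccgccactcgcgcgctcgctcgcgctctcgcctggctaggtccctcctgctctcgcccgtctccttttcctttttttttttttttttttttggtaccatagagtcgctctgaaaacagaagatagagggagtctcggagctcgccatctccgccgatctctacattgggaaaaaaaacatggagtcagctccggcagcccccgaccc
Pcp2: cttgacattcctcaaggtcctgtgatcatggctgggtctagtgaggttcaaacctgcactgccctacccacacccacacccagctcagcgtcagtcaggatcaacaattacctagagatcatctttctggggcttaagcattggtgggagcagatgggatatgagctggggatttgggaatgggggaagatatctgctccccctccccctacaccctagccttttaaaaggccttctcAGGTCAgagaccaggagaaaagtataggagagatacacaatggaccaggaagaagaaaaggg
Esrrb: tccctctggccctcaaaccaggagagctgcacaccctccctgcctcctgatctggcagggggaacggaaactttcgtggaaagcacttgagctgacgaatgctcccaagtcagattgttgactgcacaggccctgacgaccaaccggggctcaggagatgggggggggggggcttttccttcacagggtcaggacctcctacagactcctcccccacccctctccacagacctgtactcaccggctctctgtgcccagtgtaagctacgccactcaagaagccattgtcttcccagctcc
Foxp4: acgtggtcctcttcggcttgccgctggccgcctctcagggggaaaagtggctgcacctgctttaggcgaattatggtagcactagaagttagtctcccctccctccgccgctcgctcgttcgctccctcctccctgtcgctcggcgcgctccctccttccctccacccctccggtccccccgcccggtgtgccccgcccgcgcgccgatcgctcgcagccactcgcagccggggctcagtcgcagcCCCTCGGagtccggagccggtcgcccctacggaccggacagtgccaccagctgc
Kitl: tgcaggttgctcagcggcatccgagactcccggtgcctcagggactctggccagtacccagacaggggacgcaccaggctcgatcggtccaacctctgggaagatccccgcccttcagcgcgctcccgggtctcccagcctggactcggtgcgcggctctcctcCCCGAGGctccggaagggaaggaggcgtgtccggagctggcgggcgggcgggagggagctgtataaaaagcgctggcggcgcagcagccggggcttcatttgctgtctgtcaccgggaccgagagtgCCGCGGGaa

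Among these windows, AGGTCA occurred only in that of Pcp2, starting 12 bases before the start. CCCNNGG occurred in those of Foxp4 and Kitl, and the forkhead letters TGTTTAC in none. Of the 28 markers, 20 had a promoter in the table. AGGTCA was found in 4 of the 20 (Dner, Homer3, Pcp2 and Pcp4), against 16% of all 27025 genes with a promoter of this length, and CCCNNGG in 11, against 50.4%. TGTTTAC was found in 0 of the 20, against 3.55%, and the E-box CANNTG, searched in the same way on both strands, in 11, against 72.1%. These shares describe 300 bases per gene, and a match is not a site. The GC content of the windows had a median of 65.2% in the markers and 52.7% in all genes.

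The genes of IP3 and calcium release were all lower in SmoA2 by a small amount. Of 5 measured, none was called (limma), although each of the 5 reached an unadjusted p below 0.05, and in all 5 the SmoA2 arrays lay below the wild type arrays (background 8.18% and 10.2% of genes). Their log2 fold changes ranged from -0.46 to -0.12. Inpp5a, the phosphatase that ends the IP3 signal, had levels of 10.30, 10.01 and 10.46 in SmoA2, 10.65, 10.63 and 10.76 in Smo/Smo, and 10.73, 10.67 and 10.75 in wild type. SmoA2 lay below both other groups without overlap, and the log2 fold change was -0.46 ± 0.10 (adjusted p = 0.0554). Car8, a carbonic anhydrase relative without enzyme activity that binds the IP3 receptor, had 11.60, 11.55 and 11.84 in SmoA2, 12.00, 12.03 and 12.06 in Smo/Smo, and 12.03, 11.92 and 12.17 in wild type. Car8 gave -0.38 ± 0.09 (adjusted p = 0.0676). Its dimmer probe set gave -0.75 (adjusted p = 0.00307 when all probe sets entered the test), so the size for Car8 depends on the probe set.

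Homer3, a scaffold that links glutamate receptors to the IP3 receptor, gave -0.27 ± 0.06 (adjusted p = 0.0684) and Plcb4, the phospholipase of this pathway, gave -0.23 ± 0.06 (0.0694). The other 2 probe sets of Plcb4 gave -0.41 (adjusted p = 0.0307) and -0.28 (0.178). Ryr1, a calcium release channel best known from skeletal muscle, had the smallest difference of the group, -0.12 ± 0.05 (adjusted p = 0.295).

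Calcium-binding proteins and pumps followed the same direction without a call. Calb1, the calbindin that fills Purkinje cells and is the usual stain for them, had levels of 12.68, 12.67 and 12.78 in SmoA2, 12.96, 13.00 and 13.04 in Smo/Smo, and 13.02, 12.89 and 13.04 in wild type. The SmoA2 arrays were the 3 lowest and the log2 fold change was -0.27 ± 0.06, or 1.21-fold lower (adjusted p = 0.0642). Pcp4, a small calmodulin-binding protein, had 12.48, 12.43 and 12.49 in SmoA2, 12.72, 12.64 and 12.64 in Smo/Smo, and 12.70, 12.72 and 12.66 in wild type. Here too SmoA2 was lowest without overlap (-0.23 ± 0.05, adjusted p = 0.0615). Atp2b2, the plasma membrane calcium pump, gave -0.23 ± 0.07 (adjusted p = 0.163), and its other 3 probe sets gave values from -0.34 to -0.18. Atp2a3, a calcium pump of the endoplasmic reticulum, gave -0.07 ± 0.08 (adjusted p = 0.752) and had the lowest signal of the markers.

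Ion channel genes showed the smallest median of the 6 groups by role, -0.18. Kcnma1, the large-conductance potassium channel gated by calcium, gave -0.23 ± 0.06 (adjusted p = 0.0761), with its SmoA2 arrays at 9.01 to 9.09 and its wild type arrays at 9.24 to 9.31. Its other, dimmer probe sets gave -0.35 (adjusted p = 0.101) and -0.46 (0.344) when all probe sets entered the test. The T-type calcium channel gene Cacna1g gave -0.18 ± 0.07 (adjusted p = 0.264) and the P/Q-type gene Cacna1a -0.10 ± 0.09 (0.635).

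The G protein and phosphatase signalling genes had the lowest median, -0.55 over 4 genes, Pcp2 among them. Ppp1r17, an inhibitor of protein phosphatases that is a substrate of cGMP-dependent kinase, had levels of 8.39, 7.66 and 8.69 in SmoA2, 9.26, 8.86 and 9.23 in Smo/Smo, and 9.20, 9.18 and 9.08 in wild type. It was 1.87-fold lower in SmoA2 on average, the largest fold of the 28, but the SmoA2 arrays spread over 1.03 and the adjusted p was 0.0788 (-0.91 ± 0.23). Rgs8, which speeds the switching off of G proteins, had 9.16, 8.79 and 9.28 in SmoA2, 9.64, 9.54 and 9.76 in Smo/Smo, and 9.67, 9.55 and 9.47 in wild type. Its log2 fold change was -0.49 ± 0.12 (adjusted p = 0.0782). Gng13, a G protein gamma subunit, had 7.70, 7.49 and 8.25 in SmoA2, 8.61, 8.42 and 8.25 in Smo/Smo, and 8.25, 8.50 and 8.18 in wild type. SmoA2 replicate 3 overlapped the wild type arrays, and the difference of -0.50 ± 0.18 had an adjusted p of 0.239.

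Slc1a6, the glutamate transporter of Purkinje spines, had levels of 9.99, 9.80 and 10.35 in SmoA2, 10.75, 10.45 and 10.65 in Smo/Smo, and 10.62, 10.63 and 10.55 in wild type. It was 1.47-fold lower in SmoA2 without overlap (-0.55 ± 0.13, adjusted p = 0.0669). Dner, a Notch ligand on Purkinje dendrites, gave -0.07 ± 0.06 (adjusted p = 0.629) and overlapped wild type. Nefh, the heavy neurofilament subunit, gave -0.30 ± 0.17 (adjusted p = 0.455) and overlapped wild type as well.

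**Figure D3:**
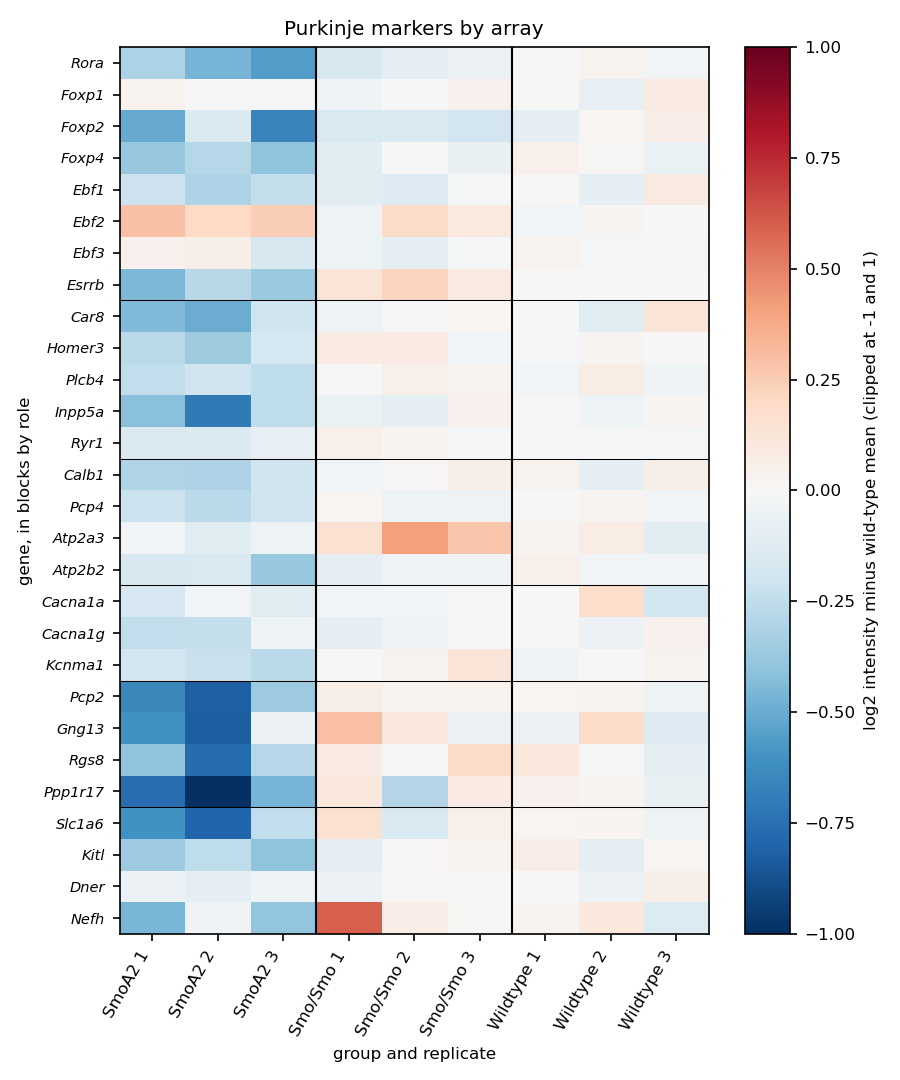
Log2 intensity minus the wild type mean of each of the 28 markers (rows, in blocks by role) in each array (columns: SmoA2, Smo/Smo, wild type, 3 replicates each), with colours clipped at -1 and 1. The SmoA2 columns are blue for most rows, with the deepest blue for Ppp1r17 in replicate 2, and Ebf2 is red in all 3.

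The 3 SmoA2 animals were alike in the overall shift but not in which markers were lowest. The median deviation of the 28 markers from the wild type mean was -0.28, -0.26 and -0.24 in SmoA2 replicates 1, 2 and 3, with 25, 26 and 27 of the 28 below the wild type mean. In Smo/Smo the same median was -0.03, 0.00 and 0.02, and in wild type 0.01, 0.01 and -0.01. Among the 20 markers that are not transcription factors, SmoA2 replicate 2 was the lowest of the 3 in 13 and replicate 3 the highest in 13. Among the 8 transcription factors, replicate 3 was the lowest in 5 and the highest in 0. The widest ranges within SmoA2 were those of Ppp1r17 (1.03), Gng13 (0.76), Slc1a6 (0.55) and Foxp2 (0.52), where the same genes spread over 0.12, 0.32, 0.08 and 0.15 in wild type. The median within-group SD of the markers was 0.09 in SmoA2, 0.05 in Smo/Smo and 0.06 in wild type, and that of all genes was 0.11, 0.08 and 0.08.

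**Figure D4:**
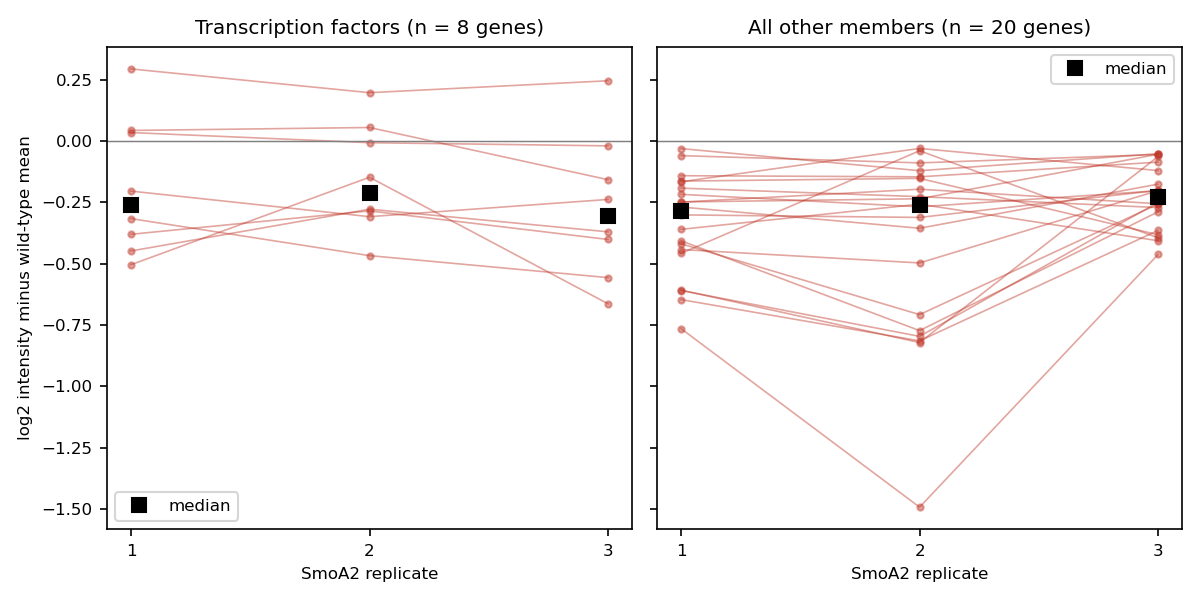
Log2 intensity minus the wild type mean (y axis) in the 3 SmoA2 replicates (x axis) for the 8 transcription factors, left, and the 20 other markers, right. Thin lines join the values of a gene, not a time course, and squares are medians. Replicate 2 holds the lowest points on the right, down to Ppp1r17 with a level of 7.66, and replicate 3 the lowest on the left.

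The second comparison asked the same of Smo/Smo and used the same wild type arrays. No marker was called (limma, background 0.371% of genes, of which 0.157% lower and 0.214% higher), and none was called in any of the alternative fits. Of the 28 markers, 14 lay below 0 (background 47.8%) and 14 above, with a median log2 fold change of 0.00 and a range from -0.16 to 0.28. At an unadjusted p under 0.05, 0 were lower (background 3.88%) and 2 higher (background 4.89%), namely Atp2a3 and Esrrb. The groups did not overlap for 3 markers lower (background 8.12%) and 3 higher (background 7.82%), shares near those of all genes. The standard errors of the 28 differences ran from 0.05 to 0.23, which sets the size that 3 arrays per group could show.

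Atp2a3 had levels of 6.60, 6.86 and 6.73 in Smo/Smo and 6.48, 6.52 and 6.35 in wild type, a log2 fold change of 0.28 ± 0.08 (adjusted p = 0.29). The Smo/Smo arrays lay above all wild type arrays. Esrrb was 0.15 ± 0.06 higher (adjusted p = 0.555). Pcp2 gave 0.04 ± 0.10, Calb1 0.02 ± 0.06, Kitl -0.02 ± 0.07, Foxp4 -0.06 ± 0.06 and Rora -0.11 ± 0.07, all on the log2 fold change scale with adjusted p of 0.741 or more. Nefh reached 9.61 in Smo/Smo replicate 1, above its other Smo/Smo arrays (9.07 and 9.02) and all wild type arrays (8.87 to 9.11).

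The third comparison set the lines against each other directly, which is also the test of whether their effects differ. In SmoA2, 9 of the 28 markers were called lower than in Smo/Smo and none higher (background 2.56% of genes called, 1.54% lower and 1.02% higher). They were Esrrb, Pcp2, Kcnma1, Homer3, Rora, Foxp4, Kitl, Rgs8 and Plcb4. The median log2 difference was -0.29, against 0.00 for all genes, and 25 of 28 lay below 0 (background 51.1%). At an unadjusted p under 0.05, 22 were lower (background 8.12%) and 1 higher (background 6.20%). The 3 SmoA2 arrays lay below all 3 Smo/Smo arrays in 20 markers (background 10.1%) and above them in 1 (background 8.12%), Ebf2.

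Esrrb had the smallest p, with a difference of -0.51 ± 0.06 (adjusted p = 0.00409), and was the 1 marker still called in each of 9 fits lacking a single array, where its adjusted p reached 0.0253. With the mean of its probe sets, 1 of them within the background range, it was not called. Pcp2 differed by -0.65 ± 0.10 (adjusted p = 0.012) and was not called in 4 of these fits, those lacking SmoA2 replicate 1 or any 1 Smo/Smo array, with adjusted p reaching 0.0565. The other 7 had adjusted p between 0.0352 and 0.0493, and each lost its call in 8 or 9 of the 9 fits. The count of called markers was 2 without each of the wild type replicates and without SmoA2 replicate 1, 5 without SmoA2 replicate 2, 9 without SmoA2 replicate 3, 1 without each of the Smo/Smo replicates, and 2 with sex as a covariate. Of the 9 called without SmoA2 replicate 3, 4 were among the 9 of the full set. Over all genes, between 0.888% and 2.44% were called in the fits lacking 1 array and 1.77% with sex as a covariate, against 2.56%. With wild type replicate 3 and SmoA2 replicate 3 left out, 5 markers and 1.55% of all genes were called.

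Other genes used by Purkinje cells were read from a second list of 24, of which 17 were measured. In SmoA2, 8 were called lower (background 1.73%) and 2 higher (background 0.961%) than in wild type, and 7 had no call. The median log2 fold change was -0.44. In Smo/Smo, 0 were called lower (background 0.157%) and 1 higher (background 0.214%). Kirrel2, an adhesion molecule of the GABAergic lineage, fell by 0.58 on the log2 scale (adjusted p = 0.00578), and Lhx5, a LIM homeodomain factor, by 0.66 (0.0026). Dab1, which relays the reelin signal inside neurons, fell by 0.50 (0.00625). Gad1, the main GABA-synthesising enzyme, Itpka, a kinase acting on IP3, Camk2a, the vesicular GABA transporter Slc32a1 and Ptf1a, which specifies GABAergic neurons of the cerebellum, were the other 5. Of the 2 that rose, Bcl11b, a zinc finger factor, changed by 1.93 ± 0.22 (adjusted p = 0.00218). Pcp4l1, a relative of Pcp4, rose in both lines, by 0.64 ± 0.11 in SmoA2 (adjusted p = 0.0148) and 0.74 ± 0.11 in Smo/Smo (adjusted p = 0.0255). Its wild type levels were 10.15, 10.05 and 9.85. The SmoA2 call of Pcp4l1 ended without wild type replicate 3, and remained without SmoA2 replicate 3 alone (0.56, adjusted p = 0.0449). Gad1, Slc32a1, Ptf1a and Kirrel2 also mark GABAergic interneurons or their progenitors. Sonic hedgehog itself (Shh), which Purkinje cells supply, gave -0.44 ± 0.11 in SmoA2 (adjusted p = 0.0738). The Smo/Smo arrays lay below all wild type arrays for Lhx5 (-0.31 ± 0.08, adjusted p = 0.199), Camk2a (-0.27 ± 0.12, adjusted p = 0.569) and Shh. They lay above them for Pvalb, Itpka, Atxn1 and Pcp4l1 (background 8.12% of genes below and 7.82% above).

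Genes of the zebrin zones, the parasagittal stripes in which Purkinje cells differ, lay on both sides of 0. Of 9 measured, 0 were called lower (background 1.73%) and 1 higher (background 0.961%) in SmoA2, the cadherin gene Cdh8 (0.29 ± 0.06, adjusted p = 0.0449). In all, 4 had an unadjusted p under 0.05 (background 8.18% lower and 6.61% higher). The other 3 of these were chosen after their values were seen. They were the ephrin receptor genes Epha4 (-0.44 ± 0.10, adjusted p = 0.0681) and Epha5 (0.45 ± 0.12, adjusted p = 0.0937) and the heat shock gene Hspb1 (-0.26 ± 0.11, adjusted p = 0.316). The median fold change was -0.05, and the median deviation of the list per array had the other sign, 0.01 to 0.06 in SmoA2. The call of Cdh8 ended when wild type replicate 3 or SmoA2 replicate 3 was left out. A difference between this list and the Purkinje markers was not tested. Many of these genes are also used by other cells, and Aldoc, the zebrin antigen, is abundant in astrocytes.

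Markers of other cell types moved in the same arrays. Over all genes, 1.73% were called lower and 0.961% higher in SmoA2 than in wild type. Of 10 markers of GABAergic interneurons, 3 were called lower in SmoA2 (Pax2, Tfap2b and Tfap2a), none higher and 7 not, with a median of -0.17. Among those not called, values ran from -0.57 for the glycine transporter gene Slc6a5 to 0.30 for the neuropeptide gene Npy. Their mean level was 7.53 to 7.69 in SmoA2, 7.79 to 7.91 in Smo/Smo and 7.87 to 7.92 in wild type. Of 13 markers of Bergmann glia and astrocytes, 4 were lower (Wif1, Gdf10, Gjb6 and Tnc), with a mean level of 10.49 to 10.58 in SmoA2, 10.84 to 10.87 in Smo/Smo and 10.89 to 10.93 in wild type. The other 9 were not called, with values from -0.85 for Gfap to 0.15 for Slc1a2 and -0.04 for Fabp7. Wif1 lay within the background range in 1 array, of SmoA2. Of 12 meningeal and fibroblast markers, 9 were lower, among them Slc22a6, Msln, Aldh1a2 and Slc6a13, with a mean level of 9.19 to 9.57 in SmoA2, 9.97 to 10.00 in Smo/Smo and 10.05 to 10.08 in wild type. The other 3 of these 12 were not called, with Dcn at -0.14. Of the 12, 11 lay below 0, and the highest value was 0.38. Msln lay within the background range in all 3 SmoA2 arrays. Of 9 granule progenitor markers, 4 were higher (Atoh1, Gli1, Ccnd1 and Ptch1), with a mean level of 11.25 to 11.33 in SmoA2, 11.07 to 11.14 in Smo/Smo and 10.94 to 11.03 in wild type. The other 5 were not called. Their values ran from -0.07 for Pax6 to 0.17 for Barhl1, with Zic1 at -0.03. The mean level of the 28 Purkinje markers was 10.01 to 10.12 in SmoA2, 10.36 to 10.38 in Smo/Smo and 10.34 to 10.37 in wild type. Without wild type replicate 3 and SmoA2 replicate 3 together, the called markers numbered 3 lower for interneurons, 2 lower for Bergmann glia and astrocytes, 4 lower for meninges and fibroblasts and 1 higher for granule progenitors, and 5 lower and 1 higher for the other Purkinje genes. Without wild type replicate 3 or without SmoA2 replicate 3 alone, 4 meningeal and fibroblast markers were called. The part of a changed mixture of cells in the Purkinje result was not tested.

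Of 12 markers of cerebellar nuclei and brainstem neurons, 1 was called lower (background 1.73%), the nuclear neuron factor Tbr1 (-0.62 ± 0.12, adjusted p = 0.0244). Of the 12, Chat and Hoxa2 lay within the background range in all 9 arrays and 3 more (Tph2, Th and Lhx2) in some, so that 7 carried a signal throughout, with a median of -0.06. The call of Tbr1 ended when either of the doubted arrays was left out. Of 4 measured unipolar brush cell markers, none was called (limma, 2 with an unadjusted p under 0.05), and the smallest p belonged to Eomes (-0.19 ± 0.05, adjusted p = 0.127) and Otx2 (0.30 ± 0.10, adjusted p = 0.188). The median of these 4 was 0.26, and 0.10 without wild type replicate 3. Some lists share genes. Otx2 is also counted in the choroid plexus list, and Lmx1a is also counted among the markers of cerebellar nuclei and brainstem neurons. The choroid plexus list had 11 measured members, of which 0 were called in SmoA2 (limma, 10 with an unadjusted p under 0.05). Over all genes, 8.18% were lower and 6.61% higher at that unadjusted threshold. The smallest p belonged to Cldn2 (1.63 ± 0.36, adjusted p = 0.0538) and Clic6 (1.54 ± 0.47, adjusted p = 0.157). Without wild type replicate 3, 6 of the 11 were called higher in SmoA2, Cldn2 with 1.11 ± 0.14 (adjusted p = 0.0111) and Clic6 with 0.84 ± 0.11 (adjusted p = 0.0125), and the median of the list was 0.66 instead of 1.43. With SmoA2 replicate 3 left out as well, 3 were called and the median was 0.57. The share of all genes called was 1.69% without wild type replicate 3 and 1.12% without both arrays. The mean level of the list was 9.01 to 9.26 in SmoA2, 9.30 to 9.57 in Smo/Smo and 6.26 to 8.54 in wild type, the lowest value being wild type replicate 3. The Purkinje markers of that array had a median deviation of -0.01 from the wild type mean, which includes the array itself. In it 17 of the 28 lay below that mean, against 9 and 11 in wild type replicates 1 and 2. Their mean level was 10.34, against 10.37 and 10.36.

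**Figure D5:**
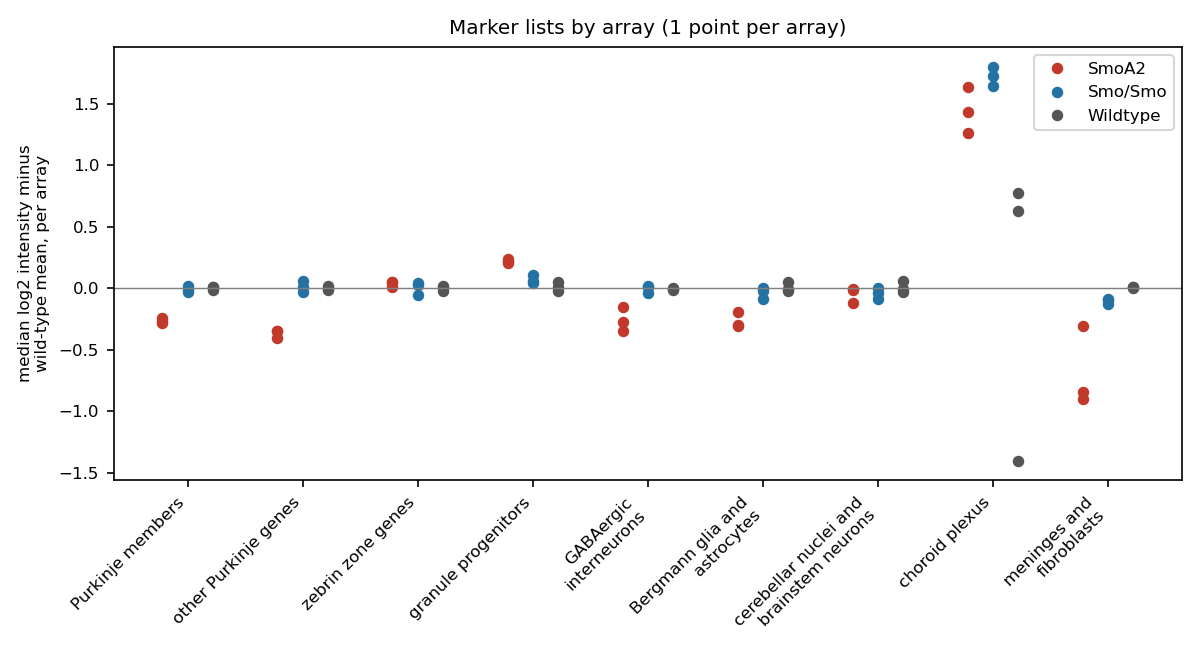
Median log2 intensity minus the wild type mean for the 28 Purkinje markers and for other marker lists, with 1 point per array and SmoA2, Smo/Smo and wild type from left to right in each list. The Purkinje points of SmoA2 lie between -0.28 and -0.24 and those of the other groups near 0, and wild type replicate 3 is the low point of the choroid plexus list.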

How the data were processed

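Each of 9 arrays measured 1 mouse. The deposited values are probe set intensity on a linear scale, summarised by the authors with RMA per the submitters' processing notes, with no version. The log2 of each value was taken here. Of 38385 probe sets, 24478 carried 1 gene symbol, 65 several and 13842 none, which gave 19147 genes, each read on its brightest probe set. All 9 arrays were fitted together in limma 3.58.1 (R 4.3.3, lmFit and eBayes) with a mean per group, and p-values were adjusted by Benjamini-Hochberg over all genes. The pipeline was tested on simulated data.

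The 28 markers, 9 other lists and arrays left out were chosen with earlier results of these data known. All markers are named, and from other lists the called genes of lowest p, at most 4 a list (2 genes where a list had no call), beside others chosen after their values were seen. Promoters came from RefSeq. Alternatives were other probe set rules, filters, normalizations, variance models, array weights, a sex term, a stricter threshold and left-out arrays. Figures used matplotlib 3.10.9. Other marker lists without the 2 doubted arrays were added after seeing the data.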

Additional observations from a re-analysis of the deposited data

Results flagged for a closer look

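For 9 Purkinje markers the effects of the mutant lines differed when the difference itself was tested in limma, as the SmoA2 minus Smo/Smo contrast. The log2 difference was -0.51 for Esrrb, -0.65 for Pcp2, -0.29 for Kcnma1, -0.31 for Homer3, -0.34 for Rora, -0.29 for Foxp4, -0.33 for Kitl, -0.57 for Rgs8 and -0.26 for Plcb4. Over all genes, 1.54% were called lower in this contrast. In each of the 9 genes the 3 SmoA2 arrays lay below the 3 Smo/Smo arrays (background 10.1%). The genes were picked by the same contrast, so this adds no further support. Apart from Esrrb and Pcp2, each lost its call in 8 or 9 of 9 fits lacking 1 array. The source of the animals and the genotype cannot be told apart here.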

How the results depend on the processing

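The number of markers called lower in SmoA2 than in wild type, 5, became 16 with dim genes left out, 18 with an intensity trend and robust eBayes, 13 with array weights, 0 with only the groups compared, 0 at an adjusted p under 0.01 and 2 without wild type replicate 3 and SmoA2 replicate 3, and ran from 0 to 10 with single arrays left out. The median was -0.35 with the probe set of largest variance and -0.28 to -0.26 with single arrays left out. In SmoA2 against Smo/Smo, the 9 calls became 5 with the probe set of largest variance, 15 with dim genes left out and 4 with median centring. They became 14 with the intensity trend and robust eBayes, 15 with array weights, 1 with only the groups compared and 2 with a sex term. The count was 1 at an adjusted p under 0.01 and 5 without both doubted arrays, and ran from 1 to 9 with single arrays left out. The median was -0.33 with the probe set of largest variance and -0.31 to -0.28 with single arrays left out. Over all genes, the share called moved with these settings. For SmoA2 against wild type it was 6.42% with dim genes left out, 3.99% with the trend, 3.07% with array weights and 1.23% with only the groups compared, against 2.69%. For SmoA2 against Smo/Smo it was 6.56%, 4.15%, 3.15% and 1.21% in the same order, against 2.56%. In that comparison it was 2.13% with the probe set of largest variance, 2.43% with median centring and 1.77% with a sex term. At an adjusted p under 0.01 it was 0.977% against wild type and 0.742% against Smo/Smo. Without both doubted arrays it was 1.12% and 1.55%. Fits without dim genes test fewer genes; the cause of the other moves was not tested. In Smo/Smo against wild type, 0 markers were called in all 21 alternatives, and the median ran from -0.02 to 0.01 with single arrays left out.

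Signs turned only for uncalled values. Against wild type, Atp2a3 in SmoA2 was 0.016 with the mean of its probe sets, Foxp1 -0.10 and Ebf3 0.056 with the probe set of largest variance, and Ebf3 ran from -0.057 to 0.050 with single arrays left out. In Smo/Smo, Ebf3 was 0.059 with the probe set of largest variance. Between the lines, Foxp1 was -0.10 with the mean and -0.18 with the largest variance. A further 36 sign changes of uncalled values were smaller than 1 SE. No paired analysis was possible because the labels give animal codes and no replicate numbers shared between groups. With 3 arrays per group, the calls of single markers rest on few values, and 1 array often decides them.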
